A study of Homo sapiens with 4 samples.

Results

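The 8 genes described here encode adhesion receptors and matrix proteins: the integrin subunits ITGAL, ITGAM, ITGB7 and ITGAV, the immunoglobulin-type receptor MCAM, the cadherin CDH2, the collagen chain COL4A5 and the microfibril protein FBN1. They were picked by name from 426 listed genes, and all 426 had been selected on the same measured contrast, OGT depletion against wild type, in the authors' deposited table. The fold changes of these genes are therefore a description, and no test of them is offered. In that table the adjusted p of the 8 was at most 0.0399, for ITGAM, while the highest of all listed values was 0.0497, under a limit of 0.05. The cells were MEG-01, an established human megakaryoblast line, and RNA sequencing of total RNA gave 4 libraries. The 2 WT libraries carry no stated treatment. The 2 OGT-depleted libraries came from cells given a single lentiviral vector with spCas9 and a guide RNA against OGT, the enzyme that adds O-linked N-acetylglucosamine to nuclear and cytosolic proteins. No control vector is named for WT and neither clones nor pools are stated, so the vector and the depletion cannot be told apart.

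Integrins are receptors made of an alpha and a beta subunit that link a cell to matrix or to other cells. ITGAL and ITGAM pair with ITGB2 on leukocytes, where they bind ICAM-type receptors and, for ITGAM, also complement fragments and fibrinogen. ITGB7 pairs with ITGA4 or ITGAE in the homing of lymphocytes to the gut and its epithelium. ITGAV pairs with several beta subunits, among them ITGB3 on megakaryocytes and platelets, and binds RGD motifs in vitronectin, fibronectin and fibrillin. Megakaryocytes meet such ligands in marrow, where they release platelets through the walls of sinusoids.

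Promoter windows were read from RefSeq (GRCh38.p14), each running from 250 bases before to 50 bases after an annotated start. Windows were matched for 7 of the 8 genes, 9 windows in all, and not for ITGAL. The windows of ITGAM and ITGB7, both lower after depletion, are shown against those of ITGAV and MCAM, both higher, because the pairs differ in base composition. They lie at chr16:31259725-31260024 (ITGAM, + strand), chr12:53207202-53207501 (ITGB7, - strand), chr2:186589806-186590105 (ITGAV, first of its windows, + strand) and chr11:119317081-119317380 (MCAM, - strand). The RefSeq start used for MCAM lies 4391 b downstream of the gene's start in GENCODE release 29, and which start the cells use was not measured. Capitals mark the letters GGGCGG, a core bound by SP1, and the letters GAGGAA, a core bound by the leukocyte factor PU.1, on either strand.
ITGAM: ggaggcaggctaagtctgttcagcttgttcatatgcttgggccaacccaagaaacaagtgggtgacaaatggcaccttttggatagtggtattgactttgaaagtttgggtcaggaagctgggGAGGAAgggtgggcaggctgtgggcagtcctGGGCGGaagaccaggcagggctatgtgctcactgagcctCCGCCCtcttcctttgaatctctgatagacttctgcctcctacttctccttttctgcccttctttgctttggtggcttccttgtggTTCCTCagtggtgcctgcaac
ITGB7: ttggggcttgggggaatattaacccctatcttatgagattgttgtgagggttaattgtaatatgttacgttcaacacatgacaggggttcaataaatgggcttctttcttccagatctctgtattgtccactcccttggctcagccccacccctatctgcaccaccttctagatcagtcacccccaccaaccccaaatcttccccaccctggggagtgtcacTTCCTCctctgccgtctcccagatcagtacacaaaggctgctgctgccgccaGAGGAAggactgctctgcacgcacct
ITGAV: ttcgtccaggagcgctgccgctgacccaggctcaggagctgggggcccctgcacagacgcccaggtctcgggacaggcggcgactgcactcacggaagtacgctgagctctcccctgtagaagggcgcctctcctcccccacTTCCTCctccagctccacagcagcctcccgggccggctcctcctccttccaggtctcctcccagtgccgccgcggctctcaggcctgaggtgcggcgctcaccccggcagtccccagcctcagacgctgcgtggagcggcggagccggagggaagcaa
MCAM: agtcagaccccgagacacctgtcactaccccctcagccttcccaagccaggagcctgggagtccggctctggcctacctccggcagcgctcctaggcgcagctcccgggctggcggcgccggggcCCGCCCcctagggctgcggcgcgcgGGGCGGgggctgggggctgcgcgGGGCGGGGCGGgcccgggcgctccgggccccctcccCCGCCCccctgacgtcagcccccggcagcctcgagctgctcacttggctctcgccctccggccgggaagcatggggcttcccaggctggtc

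The ITGAM window held 2 CpG dinucleotides and that of ITGB7 held 4, against a median of 14 over 35116 RefSeq windows of the same length. The CpG count was 23 in the first window of ITGAV, 29 in that of MCAM and 26 in that of FBN1. CDH2, a gene that was lower after depletion, also had 23 CpG in its first window, and COL4A5, a gene that was higher, had 8, so composition did not follow direction across the 7 genes. The letters GAGGAA occurred in the windows of ITGAM, ITGB7, ITGAV and COL4A5, and in 27.9% of all windows. The letters GGGCGG occurred in the windows of ITGAM, MCAM and CDH2, and in 45.0% of all windows. In ITGAM the letters TGTGGT of a RUNX core began 24 bases after the start (13.1% of all windows). The second windows, at later starts, held the letters AGATAA of a GATA core in ITGAV (10.3% of all windows) and the letters TATAAA of a TATA box in CDH2 (11.5%). The AP-1 letters TGANTCA were also in that CDH2 window (7.71%). A match of letters is no evidence of binding, and no factor was measured.

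Reads counted per library, recovered from the FPKM values, were between 17643474 and 19883586, and raw counts of the 8 genes lay between 45 and 4494. OGT itself, the targeted gene, was at 16012 and 19190 normalized counts in WT and at 9124 and 12185 after depletion. The groups did not overlap, which holds for 100% of the 426 listed genes, OGT among them. Of 12 megakaryocyte markers the table lists TUBB1 alone, and the other 11 are not analysed here. In a refit with edgeR's quasi-likelihood test, 82.2% of the 426 listed genes were called at an adjusted p under 0.05, 50.2% higher and 31.9% lower. Of the 8 adhesion and matrix genes 4 were called higher and 3 lower. The same contrast listed them, so nothing is read from that share. Higher genes were 61.1% of calls here, 43.1% with TMM factors from the listed genes and 30.2% with DESeq2 size factors from them. Both of those scalings assume that most listed genes are unchanged, though all were listed as changed. In bulk RNA, fewer cells with a transcript and less of it per cell cannot be told apart.

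The 3 leukocyte integrin genes had fewer normalized counts in each OGT-depleted library than in any WT library. Such a separation is no trait of these genes, since the groups did not overlap in 100% of the 426 listed genes, 58.2% higher and 41.8% lower. ITGAL, the alpha subunit of the lymphocyte function antigen (chromosome 16, 30483979 to 30534506, hg19, ENSG00000005844), had 1443 and 1625 normalized counts in WT and 723 and 731 after depletion. The OGT-depleted libraries were nearly equal and far below WT, at 47.4% of the WT mean (log2 fold change -1.08 ± 0.12, SE, n = 2). Of the 8 genes it has the smallest adjusted p in the authors' deposited table, where it ranks 12 among 426. ITGB7 (chromosome 12, 53585102 to 53601091, ENSG00000139626) had 2448 and 2648 normalized counts in WT and 1529.9 and 1544 after depletion. Its groups were separated by 904 counts, 4.53 times the wider gap between replicates, and the mean after depletion was 60.3% of WT (log2 fold change -0.73 ± 0.11, SE, n = 2). ITGAM, the alpha subunit of complement receptor 3 (chromosome 16, 31271311 to 31344213, ENSG00000169896), had 4297 and 4628 normalized counts in WT and 3141 and 3425 after depletion. Its groups did not overlap either, but the difference was the smallest of the 8 genes, with a log2 fold change of -0.44 ± 0.12 (SE, n = 2), and the refit did not call it.

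Partners of these subunits were in the table only for ITGB7. ITGA4, which forms a receptor for MADCAM1 with ITGB7 and one for VCAM1 with ITGB1, had 2716 and 3204 normalized counts in WT and 1855 and 2269 after depletion. Both depleted libraries were below both WT libraries, with a log2 fold change of -0.52 ± 0.14 (SE, n = 2), and the refit did not call it. ITGB2, the partner of ITGAL and ITGAM, ITGAE, the other partner of ITGB7, and all beta subunits known to pair with ITGAV are outside the table and not analysed here. In the list of 18 integrin alpha subunits 4 were in the table, with 1 called higher, 1 lower and 2 not called, beside 82.2% called of all listed genes, and in that of 8 beta subunits ITGB7 alone was listed.

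**Figure D1:**
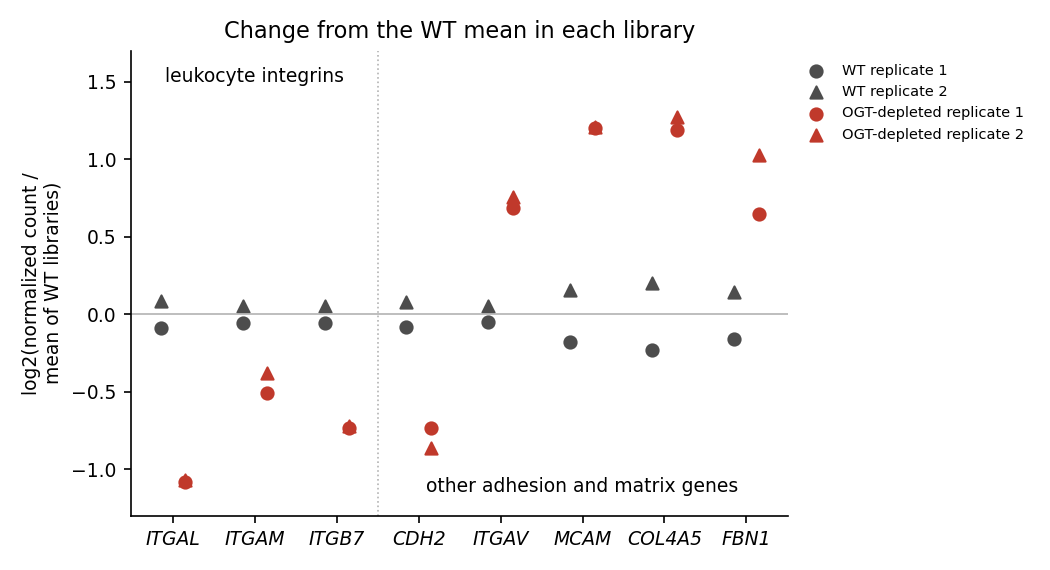
Normalized counts of the 8 genes in each library, on the y axis as log2 of the ratio to the mean of the 2 WT libraries; gray symbols are WT, red symbols OGT-depleted, circles replicate 1 and triangles replicate 2. ITGAL, ITGAM, ITGB7 and CDH2 lie below all WT values after depletion, and ITGAV, MCAM, COL4A5 and FBN1 lie above them.

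The receptors outside the leukocyte group went in both directions. ITGAV (chromosome 2, 187454792 to 187545628, ENSG00000138448) had 2086 and 2240.0 normalized counts in WT and 3472 and 3657 after depletion. Both depleted libraries exceeded both WT libraries by at least 1232 counts, 6.67 times the wider replicate gap, and the mean was 1.65-fold that of WT (log2 fold change 0.72 ± 0.11, SE, n = 2). MCAM, also called CD146, a receptor of endothelial and melanoma cells (chromosome 11, 119179241 to 119191799, ENSG00000076706), had 47.4 and 59.7 normalized counts in WT and 123 and 124 after depletion. It was scarce in every library, and its 2.30-fold difference rests on raw counts of 45 and 58 (WT) and 130 and 129 (OGT-depleted). For MCAM the log2 fold change was 1.20 ± 0.20 (SE, n = 2), but only 0.70 in the authors' deposited table. The authors' deposited group means give the same 2.30-fold, so their 0.70 is not the plain log2 of that ratio. CDH2, or N-cadherin, which joins neighbouring cells by binding to itself (chromosome 18, 25530930 to 25757410, ENSG00000170558), had 805 and 898 normalized counts in WT and 512 and 468 after depletion. Unlike ITGAV and MCAM it was lower in both depleted libraries, at 57.5% of WT (log2 fold change -0.80 ± 0.13, SE, n = 2).

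Both matrix genes were higher after depletion. COL4A5, a chain of the type IV collagen network of basement membranes (chromosome X, 107683074 to 107940775, ENSG00000188153), had 77.9 and 105 normalized counts in WT and 208 and 221 after depletion. Depending on which libraries are set against each other the fold lay between 1.98 and 2.84. For COL4A5 the log2 fold change was 1.23 ± 0.19 (SE, n = 2), but 0.84 in the authors' deposited table, again less than the ratio of their deposited means gives. FBN1, which forms the microfibrils that carry elastin and latent TGF-beta complexes (chromosome 15, 48700503 to 48938046, ENSG00000166147), had 649.7 and 802 normalized counts in WT and 1138 and 1482 after depletion. Its replicates differed most among the 8 genes after depletion, by a factor of 1.30, and the gap between the groups was 0.975 times the wider replicate gap. The log2 fold change of FBN1 was 0.85 ± 0.16 (SE, n = 2).

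The mean log2 fold change was -0.75 over the 3 leukocyte integrins and 0.64 over the other 5 genes, beside a mean of 0.28 over all 426 listed genes. The medians were -0.73, 0.85 and 0.56. Without CDH2, the only lower gene of the 5, the mean of the remaining 4 was 1.00, with a range from 0.72 to 1.23. The choice of genes fixes these directions, so the contrast between the sets is a description only. With a WT library left out, the depleted pair alone set the spread, and calls changed. All 8 log2 fold changes kept their direction, with ITGAV at 0.67 and 0.77 and COL4A5 at 1.03 and 1.46. Without WT replicate 1 the refit no longer called ITGAV, MCAM, COL4A5 or FBN1, and without WT replicate 2 it called ITGAL alone among the 8. Scaling from the listed genes assumes most of them unchanged, while all 426 were listed as changed, so such fits cannot decide the calls. With TMM factors FBN1 was not called, and under DESeq2 size factors COL4A5 was the only one of the 4 higher genes still called, and the log2 fold change of ITGAV was 0.23. ITGAM was called with either of these scalings, with DESeq2's own test and without OGT-depleted replicate 2.

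**Figure D2:**
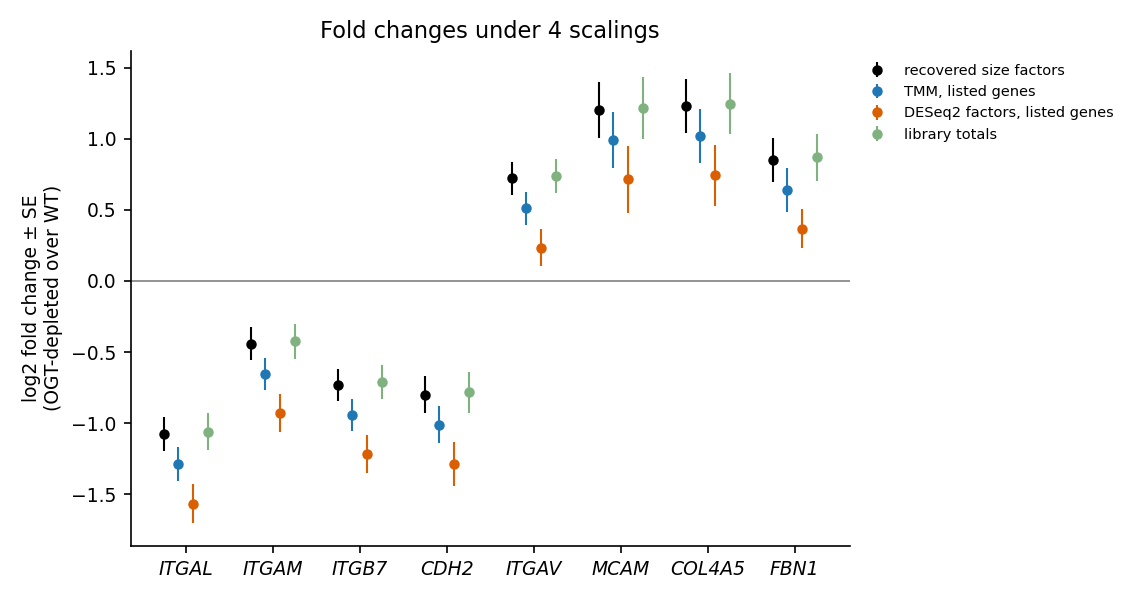
Log2 fold change of each gene (y axis, OGT-depleted over WT) with its SE as bars, under 4 ways of scaling the libraries. Scalings taken from the listed genes place every gene lower, and all 8 keep their direction, with ITGAV between 0.23 and 0.74.

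Levels per length were compared on the FPKM scale, the authors' reads scaled to gene length and to the counted reads of the library. In WT, ITGAM at 50.7 ± 4.69 and ITGB7 at 47.6 ± 4.55 FPKM (SD, n = 2) were the most abundant of the 8 and overlapped in range. ITGAV at 16.5 ± 1.49 and ITGAL at 15.8 ± 1.96 FPKM (SD, n = 2) came next and overlapped as well. CDH2 at 10.5 ± 1.23 and FBN1 at 3.31 ± 0.62 FPKM (SD, n = 2) each stood apart from their neighbours in this order. COL4A5 at 0.758 ± 0.189 and MCAM at 0.591 ± 0.120 FPKM (SD, n = 2) were the lowest and overlapped. ITGAM and ITGB7 had a higher FPKM than ITGAV within each of the 4 libraries.

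After depletion the order of means was the same, but other neighbours overlapped. ITGAM was at 37.8 ± 3.41 FPKM (SD, n = 2) and no longer overlapped with ITGB7, at 29.1 ± 1.05. ITGB7 instead overlapped with ITGAV, at 27.5 ± 1.82 FPKM (SD, n = 2). FBN1, at 6.06 ± 1.30 FPKM, overlapped with CDH2, at 6.12 ± 0.21 (SD, n = 2). ITGAL was at 7.56 ± 0.29 FPKM and MCAM at 1.38 ± 0.04 (SD, n = 2). COL4A5 had 1.71 and 1.89 FPKM. Ratios taken within a library do not depend on how libraries are scaled. The FPKM ratio of ITGAV to ITGAL was 1.07 and 1.02 in WT and 3.56 and 3.71 after depletion. That of ITGAV to ITGB7 was 0.347 and 0.345 in WT and 0.925 and 0.966 after depletion, so in each case the WT libraries were close together and the depleted ones higher. The ratio of FBN1 to CDH2 was 0.297 and 0.329 in WT and 0.820 and 1.17 after depletion. COL4A5 over MCAM, both higher, stayed between 1.23 and 1.34 in all 4 libraries. Summed over the 3 leukocyte integrin genes, FPKM was 106 and 122 in WT and 71.0 and 77.8 after depletion.

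**Figure D3:**
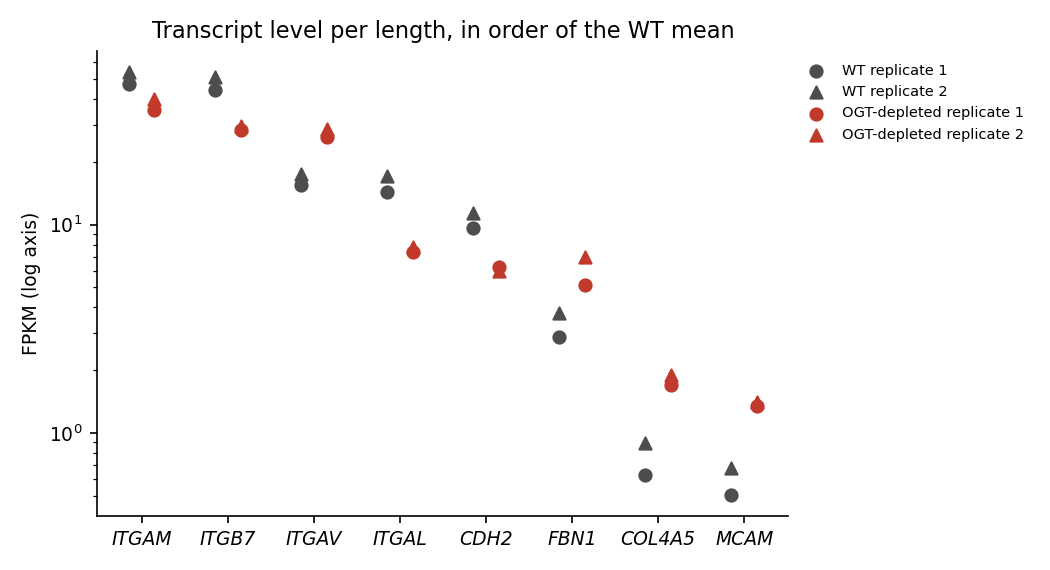
FPKM of the 8 genes in each library on a log axis, ordered by the WT mean; gray is WT and red OGT-depleted, circles replicate 1 and triangles replicate 2. After depletion ITGAV (26.2 and 28.8) overlaps in range with ITGB7 (28.3 and 29.8), though ITGAV is the lower of the pair within each library.

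The direction of differences between replicates was not used in the choice of genes, though their size entered the p-values that listed them. All 8 had more normalized counts in WT replicate 2 than in WT replicate 1, where 213 of 426 listed genes did. After depletion 7 of 8 were higher in replicate 2, against 49.3% of listed genes, with CDH2 as the exception. Of the 7, MCAM, ITGB7 and ITGAL differed by a factor of at most 1.01, and their raw counts were 130 and 129, 1615 and 1611, and 763 and 763, so their side rests on the scaling. The median log2 ratio of replicate 2 to replicate 1 over the 8 was 0.16 in WT and 0.05 after depletion. Gene length moved with the difference between replicates. Except for ITGB7 at 2867 b, the genes were longer than the listed median of 3538 b, up to 11756 b for FBN1. Of the listed genes above the median 62.0% were higher in WT replicate 2 and 69.0% in OGT-depleted replicate 2, against 38.0% and 29.6% of the rest. Its part in the differences between groups was not tested.

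**Figure D4:**
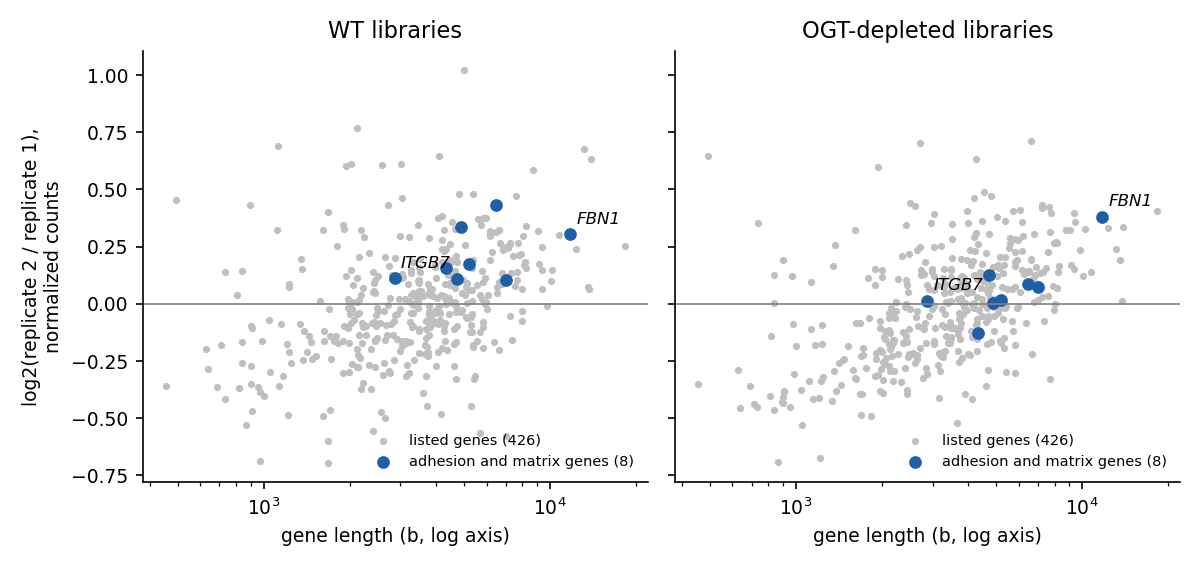
Log2 ratio of replicate 2 to replicate 1 in normalized counts (y axis) against gene length in bases (log x axis), for WT on the left and OGT-depleted on the right; gray points are the 426 listed genes and blue points the 8 adhesion and matrix genes. All 8 blue points lie above 0 in WT and 7 of 8 after depletion.

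Some of these genes have listed neighbours that went the same way. ITGAL and ITGAM lie on the same arm of chromosome 16, and HSD3B7, a bile acid synthesis enzyme and the single listed gene between them, was at 61.9% of WT (log2 fold change -0.69). SULT1A1 before ITGAL and HERC2P4 after ITGAM had log2 fold changes of -0.46 (not called) and -0.62. Both have near-identical copies elsewhere, so their reads are uncertain. A row of 7 listed genes from SULT1A1 to SLC6A2 was lower, but it spans 27.1 Mb, and 5 of the 7 were called, beside 82.2% of all listed genes. PRKCB, a protein kinase C gene and the next listed one before this row (start at -6.64 Mb from that of ITGAL), was called higher, at 147% of WT. Over the whole chromosome 9 listed genes were higher and 8 lower. ITGAV lies between ZC3H15 and FAM171B on chromosome 2, within 0.28 Mb and on the same strand. ZC3H15 ends 80702 b before ITGAV and was at 176% of WT, and FAM171B begins 13070 b after it and was at 214%, with a log2 fold change of 1.10. All 3 were called higher, on a chromosome with 12 higher and 14 lower listed genes, while ITGA4, 5.13 Mb before ITGAV, was lower. The listed neighbours of FBN1, LTK and SMAD6, were both lower and lie at least 6.89 Mb away, and the nearest to MCAM, PRSS23, lies 32.5 Mb away and was lower. Around COL4A5 on chromosome X, NXF3, 5.33 Mb before it, was higher and DDX26B, 26.7 Mb after it, was lower. That chromosome, which also carries OGT, had 25 higher and 4 lower of 29 listed genes, against 58.2% higher of all listed genes. The part of the chromosome in the difference of COL4A5 was not tested.

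**Figure D5:**
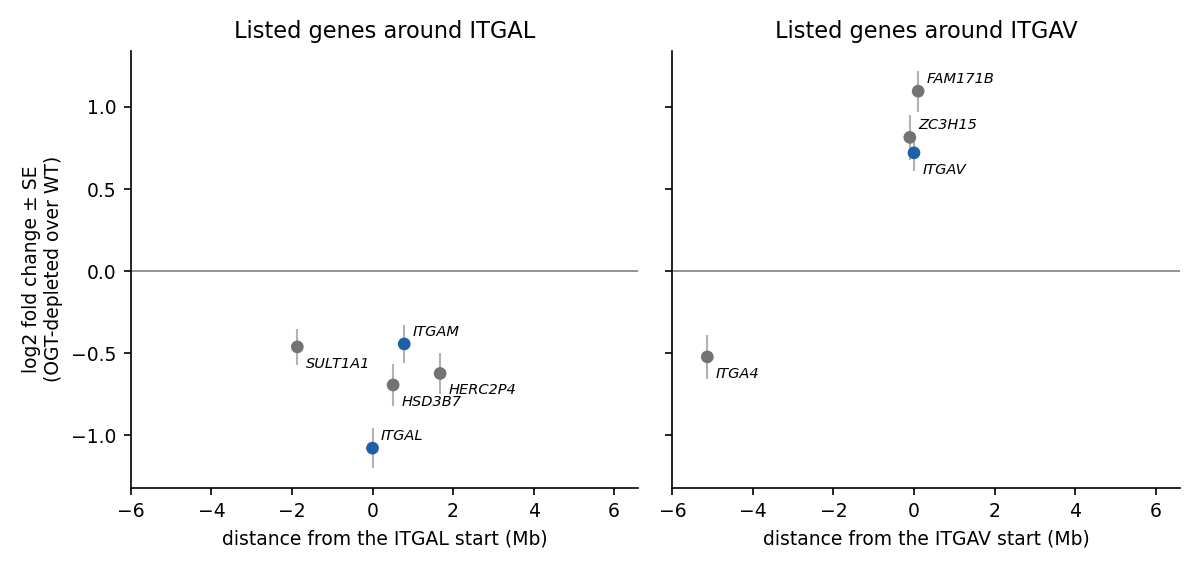
Log2 fold change (y axis, OGT-depleted over WT) with its SE as bars for listed genes within 6 Mb of ITGAL (left) and of ITGAV (right), by distance of their starts in Mb; blue points are ITGAL, ITGAM and ITGAV. The listed genes within 6 Mb of ITGAL lie below 0, while PRKCB, higher, lies just outside the plot at -6.64 Mb. On the right ZC3H15, ITGAV and FAM171B lie together above 0, and ITGA4, at -5.13 Mb, lies below 0.

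Opposite-strand genes overlap several of the 8 in GENCODE release 29. ZNF740 overlaps ITGB7 and CBL overlaps MCAM, both protein-coding and outside the table. ITGAL, ITGAV and CDH2 have antisense transcripts in that annotation. The strand setting was not given in the sources used here. Without it, reads of such partners and of the named gene cannot be told apart.

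For each gene the listed gene with the nearest pattern was found, as the smallest root mean square difference of centred log2 normalized counts over the 4 libraries. DERL3, a protein of endoplasmic reticulum quality control, lay nearest to CDH2, at 0.0106, with 313 and 344 normalized counts in WT and 195 and 181 after depletion. CBX1, a heterochromatin protein, lay nearest to ITGAV, at 0.0236, and the mitochondrial methionyl-tRNA synthetase gene MARS2 to ITGAM, at 0.0280. POU4F1, a homeobox factor, was nearest to ITGB7 at 0.0289, utrophin (UTRN) to FBN1 at 0.0340 and the mast cell carboxypeptidase CPA3 to MCAM at 0.0384. IZUMO1 was nearest to ITGAL at 0.0472 and the actin-binding ABLIM1 to COL4A5 at 0.0552. None of these was another integrin, adhesion or matrix gene of the lists, and 4 libraries in 2 groups leave few patterns to tell apart.

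Other listed genes of adhesion and matrix were few. Of 36 collagens COL14A1, a fibril-associated chain, was listed beside COL4A5, and it had 189.5 and 236 normalized counts in WT and 353 and 390.1 after depletion, a 1.75-fold difference that was called. Of 19 microfibril and elastic fibre genes LTBP4, which binds latent TGF-beta, was listed beside FBN1 and was called lower, at 70.4% of WT. In the list of 26 matrix proteases and inhibitors the membrane protease MMP14 was called lower at 68.2% of WT. Its companions were the inhibitor TFPI2, called higher at 3.53-fold, and the metalloprotease inhibitor TIMP3, which had a log2 fold change of -0.47 ± 0.11 (SE, n = 2) and was not called. BCAR1, the docking protein of focal adhesions, was the single listed gene of 26 in the focal adhesion and integrin activation list, with 212 and 266 normalized counts in WT and 418 and 370.0 after depletion, and was called higher. MCAM was the single listed gene of 23 immunoglobulin-type receptors and selectins, and CDH2 of 15 cadherins and catenins. None of 24 laminins and matrix glycoproteins was in the table.

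Markers of other cell types were set beside these values, since leukocyte integrins and matrix genes mark other lineages. ITGAM was the single listed gene of 16 monocyte and granulocyte markers, and GZMA of 15 lymphoid markers, which was called higher, from 22.1 and 29.9 normalized counts in WT to 132 and 97.8 after depletion. That is opposite in direction to ITGAL and ITGB7. None of 10 fibroblast and stromal markers was listed, and of 9 endothelial markers KDR, the VEGF receptor, was called higher at 2.31-fold, in the direction of MCAM. Of 10 mast cell and basophil markers 5 were listed, with 3 called higher and 2 lower. CPA3 was 2.29-fold, TPSAB1 3.86-fold and TPSB2 3.21-fold higher, while FCER1A was at 60.8% of WT and MS4A3 at 55.8%. Their summed normalized counts, 5189.6 to 6478 in WT and 3786 to 4398 after depletion, were mostly FCER1A, with 5492 and 4418 in WT and 3203 and 2825 after depletion. TPSAB1 and TPSB2 among them are near-identical copies. Of 12 erythroid markers HBE1 was called higher at 3.32-fold and KEL lower at 68.1% of WT, with sums of 2414 to 2581 in WT and 3727 to 4373 after depletion. The megakaryocyte marker TUBB1 had 126 and 136 normalized counts in WT and 264 and 336 after depletion. Levels of the markers outside the table are unknown here, and the part of the listed ones in the differences of the adhesion genes was not tested.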

How the data were processed

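The 2 WT and 2 OGT-depleted libraries were grouped by their titles. The treated columns are headed OGTi with the numbers 1 and 2 and were matched to the CR_OGT titles by number. The meaning of OGTi was not given in the sources used here. Total RNA was made into NEBNext Ultra libraries, per the labels' protocols. The submitters' processing notes name hg19, STAR 2.5, TopHat, CASAVA 1.8 and DESeq2, with no roles. Read counter, annotation and strand setting were likewise not given. The authors deposited raw read counts and FPKM values for 426 genes. The authors' mean columns hold a normalized signal, counts over a size factor per library, and the size factors (0.950 to 1.06) were solved from them. Log2 fold changes, p-values and adjusted p-values in the table are the authors', per the file headers.

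Normalized counts here are raw counts over those factors. edgeR 4.0.16 in R 4.3.3 (filterByExpr, glmQLFit, glmQLFTest) was fitted to all 426 genes, and Benjamini-Hochberg adjustment ran over the 13154 tested genes that the deposited adjusted p-values imply. The SE of each log2 value is its absolute size divided by the root of the F statistic. It borrows from the spread of the listed genes, which were selected on this contrast, and it depends on the fit. DESeq2's own test with the same size factors gave larger SEs for all 8 genes, among them 0.32 for MCAM and 0.26 for COL4A5. The replicate block gave smaller ones. The procedure was tested on simulated data. Alternatives were DESeq2 1.42.0, TMM, DESeq2 size factors and library totals as scalings, no filter, a replicate block and each library left out. Replicates differed by more than counting noise (mean chi-square per gene 13.5 in WT and 25.2 after depletion), so each counts as 1 library. Nothing says that replicates were separate cultures, and errors then cover only how these libraries vary, possibly for technical reasons.

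The 8 genes and the gene lists were chosen with earlier results of these data known. Named genes are the 8, listed genes of the pathway and marker lists, the nearest listed gene on either side and OGT. The nearest pattern outside the 8 was also named for each. Promoter windows are RefSeq's on GRCh38.p14, and gene positions are the deposited hg19 ones.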

Additional observations from a re-analysis of the deposited data

How the results depend on the processing

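All 8 genes kept their direction under the 10 alternative fits, and the filter on low counts removed no gene. TMM factors from the listed genes moved the median log2 fold change of the 426 genes by -0.21 and DESeq2 size factors from them by -0.49. Each assumes that most listed genes are unchanged, which their selection on this contrast goes against. Genes called higher numbered 214, and 135 and 77 under those scalings, and genes called lower 136, and 178 under each. The mean log2 fold change of the leukocyte integrins was -0.75, and -0.96 and -1.24 under those scalings. That of the other 5 genes was 0.64, and 0.43 and 0.15, while their median was 0.85. Of the 4 genes among the 8 called higher, 3 and 1 passed under those scalings. Leaving out each library in turn gave 32 to 223 higher and 5 to 122 lower calls, 0 to 4 higher and 1 to 4 lower among the 8, and means of 0.52 to 0.78 over the other 5 genes. The lowest counts of calls came without WT replicate 2, where the lone WT library is assumed to vary like the depleted pair. With the replicate block, edgeR called 0 genes higher and 0 lower, of the 8 as well (smallest adjusted p 0.0629, 1 residual degree of freedom), though all 426 had an unadjusted p under 0.05; no other tool was run with the block. Replicate differences correlated between the groups across genes (r = 0.50), but with 2 pairs the labels give only shared numbers. ITGAM was called in 4 of 10 alternatives, ITGAL in 9. The low counts of MCAM and COL4A5 limit their precision. Deposited log2 fold changes were smaller in size than the refit's for all 8 genes. They are also smaller than the ratios of the authors' own deposited means, which the normalized counts reproduce. How the deposited log2 values were computed was not given in the sources used here. Among these deposited values that of ITGAL was the largest in size, at -0.95, beside 0.84 for COL4A5 and 0.70 for MCAM.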

Other observations

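Beyond the lists, the deposited gene descriptions were searched for words of adhesion and matrix (integrin, cadherin, adhesion molecule, collagen, laminin, fibrillin and the like), a search made after the values were seen. Apart from the 8 genes it found 6, of which 2 were called higher and 3 lower in edgeR's refit, a share close to the 82.2% of all listed genes. SERPINH1, the collagen chaperone HSP47 of the endoplasmic reticulum, had 2023 and 2029.9 normalized counts in WT and 3070.2 and 2725 after depletion, a 1.43-fold difference in the direction of COL4A5 and COL14A1. CEACAM19 had 489.6 and 504 normalized counts in WT and 279 and 293 after depletion, at 57.6% of WT. CERCAM, which is named as an adhesion molecule of brain endothelium and resembles collagen galactosyltransferases, was at 60.9% of WT, with 542 and 565 normalized counts in WT and 357 and 317 after depletion. The WT and OGT-depleted libraries did not overlap in SERPINH1, CEACAM19 and CERCAM, nor in any other of the 426 listed genes. MMP14, COL14A1 and ITGA4, found by the same words, are described above, and these genes were listed on the same contrast.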
